A study of Homo sapiens with 8 samples.

Results

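Notch genes were examined in N/TERT cells, human keratinocytes immortalized with TERT, after treatment with ethanol, the solvent control, or with oligomycin and antimycin A (O/A). The 10 genes are the receptors NOTCH1, NOTCH2 and NOTCH3, the ligands JAG1, JAG2 and DLL1, and the target genes HES1, HES4, HEY1 and NRARP, out of 61806 genes in the count table. Their rows were found by gene symbol, without use of their values, and all 10 were present once. The set itself was chosen with earlier results of these data known. Oligomycin blocks ATP synthase and antimycin A blocks complex III, so that O/A depolarizes mitochondria, and the study used the drugs to induce mitophagy. Wild-type cells of this 1 line were grown in keratinocyte serum-free medium with EGF and bovine pituitary extract. The study's general medium for these cells also held added calcium chloride, which its mRNA-seq methods do not list. The cells were treated for 4 hours, and 4 libraries of poly(A)-selected RNA were made per condition, from 4 independent experiments. The sample labels state no dose.

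Notch is a receptor that is switched on by contact between cells. A Jagged or Delta ligand on one cell binds the receptor on its neighbour, an ADAM protease and then γ-secretase cut the receptor, and the released intracellular domain joins RBPJ and a Mastermind protein on DNA. Several genes of the HES and HEY families, which encode transcriptional repressors, and NRARP, which encodes a feedback inhibitor, are among its classical targets. In the epidermis Notch promotes the exit of basal keratinocytes from the cell cycle and their commitment to differentiate.

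By fitted fold change the ligand genes differed most between the conditions, and in opposite directions. JAG1 rose 2.29-fold, while JAG2 fell 2.11-fold and DLL1 fell 2.24-fold. Of the receptors, NOTCH3, expressed at a low level, was upregulated, and NOTCH1 and NOTCH2 moved by less than the fold threshold. Among the targets HEY1, the gene with the fewest reads, was upregulated. Its 2.03-fold rise was too imprecise to be ranked below the ligand changes. HES1, HES4 and NRARP did not pass both thresholds.

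Between 17210404 and 20999927 reads per library were counted on genes. A gene needed 10 or more counts in 4 or more libraries to be tested, and all 10 Notch genes reached this, so that none was too low to test. Genes were called upregulated or downregulated when edgeR's quasi-likelihood test gave an adjusted p no higher than 0.05, with a log2(FC) beyond 0.25 in either direction, where FC is the level in O/A over that in ethanol. By this rule 3 of the 10 genes were upregulated and 2 were downregulated. Of all 14893 genes tested, 34.7% were called, 15.8% as upregulated and 18.9% as downregulated, so the share of Notch genes called (5 of 10) is to be read against a broad response. With no fold threshold 8 of the 10 passed the adjusted p of 0.05 in edgeR, against 53.7% of all genes tested. Their median log2(FC) was 0.22, and that of all genes tested was -0.0004. The libraries of the conditions did not overlap for 4 of the 10 genes, against 47.6% of all genes tested. These 4 were JAG1 and NOTCH3, higher in O/A, and JAG2 and DLL1, lower in O/A.

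The keratinocyte markers were in place. All 8 (KRT5, KRT14, TP63, ITGA6, ITGB4, COL17A1, KRT6A and KRT17) were expressed highly enough to be tested, with a summed FPKM (fragments per kilobase of exon, scaled to the depth of the library) of 5585 to 5957 in ethanol and 4997 to 5236 in O/A. KRT5 was the 1 marker of these that was called, with a log2(FC) of -0.30. Of 6 markers of suprabasal keratinocytes, KRT1 and LORICRIN were at 0 in every library, FLG and DSG1 were too low to test, KRT10 rose (log2(FC) 0.47) and IVL fell (log2(FC) -0.31). Markers of other cells were low. The sums over 5 fibroblast genes were 2.42 to 2.95 FPKM in ethanol and 2.45 to 2.69 in O/A, nearly all of it COL1A1, and those over 4 endothelial genes were at most 0.08. The sums over 4 melanocyte genes were 0.33 to 0.64 FPKM in ethanol and 0.27 to 0.66 in O/A, with MLANA and TYR at 0. Those over 4 immune genes were 0.46 to 0.62 and 0.65 to 0.88, mostly CD68, which was upregulated (log2(FC) 0.56). The part of these markers in the results on Notch genes was not tested. In bulk RNA, fewer cells that express a gene and less RNA per cell cannot be told apart.

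JAG1 encodes Jagged 1, a membrane ligand that activates Notch receptors on adjacent cells. It lies on the minus strand at chr20:10637684-10673999 (GRCh38.p13). Its level was 32.6, 31.7, 32.2 and 33.4 FPKM in ethanol replicates 1 to 4. In O/A replicates 1 to 4 it was 74.6, 71.0, 74.2 and 68.5 FPKM. Every O/A library stood far above every ethanol library, and the replicates of a condition lay close together. The mean level rose from 32.5 ± 0.695 to 72.1 ± 2.86 FPKM (SD, n = 4), on 5152 to 6518 counts per library in ethanol and 11291 to 13291 in O/A. The log2(FC) was 1.20 with a standard error of 0.0276 and a 95% confidence interval from 1.14 to 1.25 (edgeR quasi-likelihood adjusted p = 2.30e-37). Of all genes tested, 1.71% rose by more. JAG1 was the most abundant of the 10 transcripts per length in both conditions.

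JAG2 encodes Jagged 2, the other Jagged ligand of mammals. It lies on the minus strand at chr14:105140982-105168824. Its level was 3.05, 2.86, 4.40 and 3.48 FPKM in ethanol replicates 1 to 4 and 1.69, 1.72, 1.53 and 1.37 FPKM in O/A replicates 1 to 4. All O/A libraries lay below all ethanol libraries, and ethanol replicate 3 was the highest. The mean level fell from 3.45 ± 0.686 to 1.58 ± 0.162 FPKM (SD, n = 4), on 321 to 484 and 155 to 207 counts per library. Its log2(FC) was -1.08 (standard error 0.143, 95% confidence interval -1.40 to -0.76, edgeR quasi-likelihood adjusted p = 1.14e-04). Leaving out each library in turn gave a log2(FC) of -1.16 to -0.95.

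DLL1 encodes Delta-like 1, a ligand of the Delta class. It lies on the minus strand at chr6:170282206-170306565. In ethanol replicates 1 to 4 its level was 1.03, 0.97, 1.28 and 0.90 FPKM, and in O/A replicates 1 to 4 it was 0.47, 0.56, 0.48 and 0.28 FPKM. Again the conditions did not overlap, with O/A replicate 4 the lowest library. DLL1 had 65 to 84 counts per library in ethanol and 19 to 40 in O/A, which makes the size of the fall less precise than for the Jagged genes. Its log2(FC) in the fit was -1.16 (standard error 0.177, 95% confidence interval -1.52 to -0.80, edgeR quasi-likelihood adjusted p = 1.73e-07). On log2(FPKM + 1) values, a scale that compresses changes of low genes, it was -0.50. DLL1 overlaps FAM120B, a gene on the opposite strand that was itself downregulated (log2(FC) -0.55, 905 to 1119 counts per library in ethanol and 622 to 675 in O/A). Exons of FAM120B cover 370 of the 3819 exonic bases of DLL1 (9.69%). Whether reads were counted by strand is not stated, so reads in that stretch cannot be assigned with certainty, and their part in the fall of DLL1 was not tested.

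The ligand genes therefore differed in composition between the conditions. JAG1 made up 86.9% ± 1.96 of the summed FPKM of JAG1, JAG2, DLL1, DLL3 and DLL4 in ethanol and 96.6% ± 0.119 in O/A (SD, n = 4). Library by library, this share ran from 84.0% to 88.2% under ethanol and from 96.4% to 96.7% under O/A. The share of JAG2 went from 9.19% ± 1.60 to 2.11% ± 0.184, and that of DLL1 from 2.79% ± 0.407 to 0.597% ± 0.151. Each of the 3 shares had p = 0.0286 in a two-sided exact permutation test, the smallest that 4 libraries against 4 can give, and 0.0571 after Benjamini-Hochberg adjustment over the 6 shares compared, which misses 0.05. Shares of one total are not independent of each other. Taken on counts, with no division by gene length, the share of JAG1 differed by 6.29 percentage points between the conditions in place of 9.67, that of JAG2 by -5.21 in place of -7.08 and that of DLL1 by -0.96 in place of -2.20. The summed level of JAG1, JAG2 and DLL1 was 37.0 ± 1.08 FPKM in ethanol and 74.1 ± 3.03 in O/A, 2.00 times as high. The ratio of JAG1 to JAG2, taken after the levels were seen, was 9.67 ± 1.69 in ethanol and 46.0 ± 4.00 in O/A.

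The receptors moved little. NOTCH1, the receptor best known for its part in keratinocyte differentiation, lies on the minus strand at chr9:136494433-136546048. Its level was 16.5, 15.9, 16.9 and 19.0 FPKM in ethanol replicates 1 to 4 and 17.6, 19.1, 18.8 and 19.5 FPKM in O/A replicates 1 to 4. Ethanol replicate 4 lay among the O/A libraries, so the conditions overlapped. The mean went from 17.1 ± 1.35 to 18.7 ± 0.837 FPKM (SD, n = 4), with a log2(FC) of 0.18 (standard error 0.058, edgeR quasi-likelihood adjusted p = 0.0312). The 95% confidence interval of 0.04 to 0.31 reaches past the fold threshold, and NOTCH1 was not called.

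NOTCH2, a close relative of NOTCH1 and the other abundant receptor here, lies on the minus strand at chr1:119911553-120100779. Its level was 14.4, 13.9, 13.4 and 16.1 FPKM in ethanol replicates 1 to 4 and 15.2, 15.5, 15.3 and 15.9 FPKM in O/A replicates 1 to 4. The highest library of all was ethanol replicate 4. The log2(FC) was 0.14 (standard error 0.051, 95% confidence interval 0.02 to 0.25, edgeR quasi-likelihood adjusted p = 0.0423), within the fold threshold. Part of NOTCH2 is nearly identical to the NOTCH2NL genes, so reads from that part cannot be placed with certainty. Their effect on the counts of NOTCH2 was not tested. The 4 NOTCH2NL genes in the table held 4.71% as many reads as NOTCH2, and none of them was called.

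NOTCH3 lies on the minus strand at chr19:15159038-15200995. In ethanol replicates 1 to 4 its level was 0.55, 0.42, 0.57 and 0.50 FPKM, and in O/A replicates 1 to 4 it was 0.70, 0.71, 0.73 and 0.63 FPKM. All O/A libraries were above all ethanol libraries, on 70 to 99 counts per library in ethanol and 105 to 132 in O/A. It rose 1.40-fold, with a log2(FC) of 0.48 (standard error 0.117, 95% confidence interval 0.25 to 0.72, edgeR quasi-likelihood adjusted p = 4.58e-04). On log2(FPKM + 1) values the log2(FC) of NOTCH3 was 0.17, below the fold threshold. NOTCH3 remained a small part of the receptor total, 1.60% ± 0.235 in ethanol and 1.99% ± 0.163 in O/A (exact permutation p = 0.0571, adjusted over the 6 shares p = 0.0857). The share of NOTCH1 was 53.3% ± 1.11 in ethanol and 53.7% ± 0.800 in O/A (exact permutation p = 0.543, adjusted p = 0.543). That of NOTCH2 was 45.1% ± 1.24 and 44.3% ± 0.715 (exact permutation p = 0.343, adjusted p = 0.411). Summed over NOTCH1, NOTCH2 and NOTCH3, the level was 32.0 ± 2.40 FPKM in ethanol and 34.9 ± 1.08 in O/A.

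**Figure D1:**
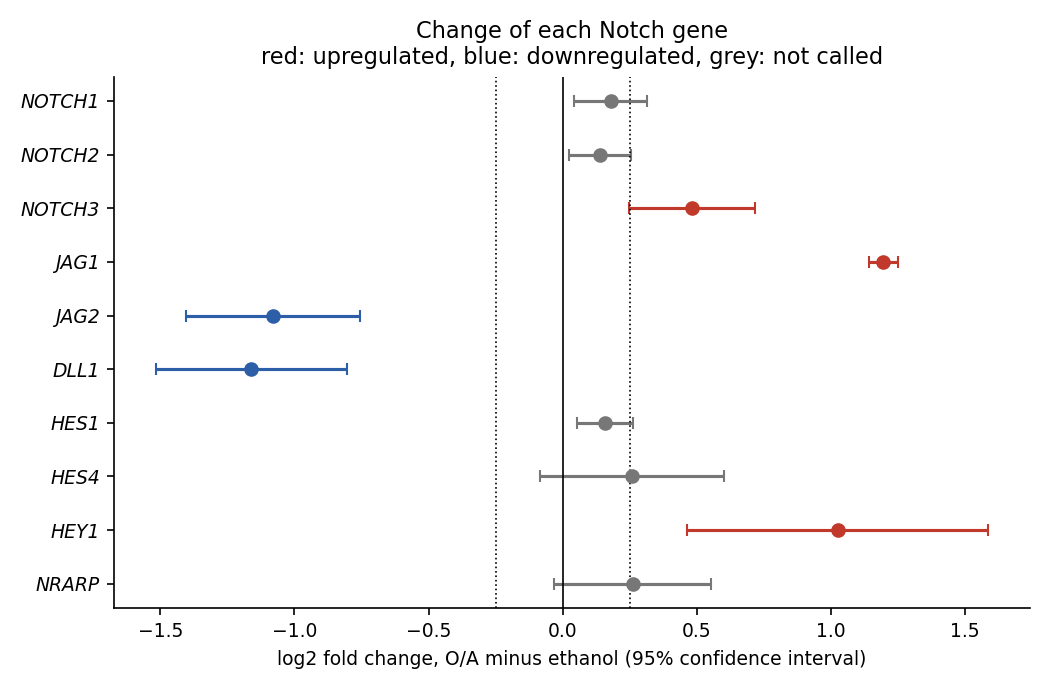
Log2 fold change (x axis, O/A minus ethanol) of each of the 10 Notch genes with its 95% confidence interval from the edgeR fit. Dotted lines mark the fold threshold of 0.25 in each direction. JAG1 (1.20) and HEY1 (1.02) lie furthest to the right and DLL1 (-1.16) and JAG2 (-1.08) furthest to the left, and the interval of HEY1 is the widest of the 3 upregulated genes.

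Among the target genes, HES1 encodes a repressor that is induced by Notch in many tissues. It lies on the plus strand at chr3:194136148-194138732. Its level was 15.6, 15.4, 16.2 and 14.8 FPKM in ethanol replicates 1 to 4 and 17.3, 17.0, 17.0 and 15.6 FPKM in O/A replicates 1 to 4. O/A replicate 4 lay within the ethanol range, and the other O/A libraries lay above it. The fit gave a log2(FC) of 0.16 (standard error 0.051, 95% confidence interval 0.05 to 0.26, edgeR quasi-likelihood adjusted p = 0.00774). HES1 was thus at most slightly higher in O/A, and was not called.

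HES4, a human paralogue of HES1, lies on the minus strand at chr1:998962-1000172. Its level was 1.95, 2.85, 1.66 and 2.77 FPKM in ethanol replicates 1 to 4 and 2.48, 2.61, 2.55 and 3.13 FPKM in O/A replicates 1 to 4. The ethanol libraries spread over a wider range than the O/A libraries, on 32 to 65 counts. Its log2(FC) was 0.26 (standard error 0.170, edgeR quasi-likelihood adjusted p = 0.207), and its 95% confidence interval from -0.09 to 0.60 holds both no change and a rise as large as that of NOTCH3.

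HEY1, of the related HEY family, had the fewest reads of the 10 genes, 7 to 21 counts per library in ethanol and 18 to 40 in O/A. Its level was 0.07, 0.12, 0.22 and 0.16 FPKM in ethanol replicates 1 to 4 and 0.24, 0.39, 0.33 and 0.19 FPKM in O/A replicates 1 to 4. The conditions overlapped, since O/A replicate 4 lay below ethanol replicate 3. It rose 2.03-fold, with a log2(FC) of 1.02 (standard error 0.278, 95% confidence interval 0.46 to 1.59, edgeR quasi-likelihood adjusted p = 0.00171). Leaving out each library in turn gave a log2(FC) of 0.80 to 1.28, while on log2(FPKM + 1) values that of HEY1 was 0.17, below the fold threshold.

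NRARP, whose product limits Notch signalling by acting on the intracellular domain, lies on the minus strand at chr9:137299631-137302271. Its level was 1.46, 1.21, 1.63 and 1.48 FPKM in ethanol replicates 1 to 4 and 2.18, 1.43, 1.34 and 1.79 FPKM in O/A replicates 1 to 4. O/A replicates 2 and 3 lay within the ethanol range, and replicates 1 and 4 above it. The fit gave a log2(FC) of 0.26 (standard error 0.145, 95% confidence interval -0.03 to 0.55, edgeR quasi-likelihood adjusted p = 0.129), so NRARP was not called. Without O/A replicate 3 it was called, at 0.36 on the log2 scale (edgeR quasi-likelihood adjusted p = 0.0449). Without O/A replicate 1, the highest library, its log2(FC) was only 0.11 (edgeR quasi-likelihood adjusted p = 0.558).

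When each gene was compared on its own, by a two-sided exact permutation test of log2 CPM (counts scaled to library depth), p was 0.0286 for JAG1, JAG2, DLL1 and NOTCH3. It was 0.0571 for NOTCH1, HES1 and HEY1, 0.114 for NOTCH2, 0.257 for NRARP and 0.286 for HES4. These were 10 tests, and the p-values are not adjusted for their number. The smallest p that the design allows is 0.0286, which libraries that do not overlap always give. For JAG1, JAG2, DLL1 and NOTCH3 the test therefore restates that their libraries did not overlap. HEY1, called in the edgeR fit, was above 0.05 in this test even without adjustment. The test uses the spread of the one gene alone.

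The promoters of the target genes are shown because RBPJ, the DNA-binding partner of the Notch intracellular domain, recognizes the core TGGGAA. Sequences (GRCh38.p14) from 250 bases before to 50 after the RefSeq start of the gene were used. They were matched for 8 of the 10 genes, all but DLL1 and HEY1. Both strands were searched for TGGGAA and for GTGGGAA, which contains it. The core was found in the promoters of HES1 and HES4, shown 5′ to 3′ on the strand of the gene with the core in capitals. The HES1 promoter is at chr3:194135898-194136197 (plus strand) and the HES4 promoter at chr1:1000048-1000347 (minus strand).
HES1: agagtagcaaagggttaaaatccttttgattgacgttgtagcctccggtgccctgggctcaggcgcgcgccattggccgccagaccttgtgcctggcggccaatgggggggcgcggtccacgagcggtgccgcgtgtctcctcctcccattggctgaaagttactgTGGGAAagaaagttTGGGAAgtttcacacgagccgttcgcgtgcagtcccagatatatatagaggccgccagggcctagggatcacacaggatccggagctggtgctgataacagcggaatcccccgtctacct
HES4: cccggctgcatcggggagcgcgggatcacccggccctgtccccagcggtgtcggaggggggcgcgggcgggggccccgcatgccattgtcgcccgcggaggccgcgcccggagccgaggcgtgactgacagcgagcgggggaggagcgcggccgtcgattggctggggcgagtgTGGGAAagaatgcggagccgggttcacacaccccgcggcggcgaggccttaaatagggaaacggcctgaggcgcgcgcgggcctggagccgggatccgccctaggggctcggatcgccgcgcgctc
The HES1 promoter holds 2 copies of the core, which start 84 and 70 bases upstream of the RefSeq start. The HES4 promoter holds 1, which starts 76 bases upstream of the RefSeq start. For HES4 the RefSeq start lies inside the gene span given above, so this distance does not hold for the 5′ end of that span. Each promoter holds 1 copy of GTGGGAA. Neither motif was found in the windows of NOTCH1, NOTCH2, NOTCH3, JAG1, JAG2 and NRARP. Of 35116 promoters of the same length, 24.0% hold TGGGAA and 6.25% hold GTGGGAA, so that a match is common. HES1 and HES4, which hold these letters, had log2(FC) values of 0.16 and 0.26, and neither was called.

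In order of mean FPKM, JAG1 led in ethanol, followed by NOTCH1, HES1 and NOTCH2 (17.1, 15.5 and 14.4 FPKM), whose ranges overlapped from each to the next. JAG2, HES4, NRARP, DLL1, NOTCH3 and HEY1 followed, and of these only NRARP and DLL1 overlapped as neighbours. In O/A the first 4 genes kept this order, but JAG2 dropped from the fifth place to the seventh, with a range that overlapped that of NRARP. DLL1 dropped from the eighth place to the ninth, where its range overlapped that of HEY1. HES1 and NOTCH2 also overlapped in O/A.

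The 3 genes whose log2 CPM followed JAG1 most closely over the 8 libraries were SDC4, which encodes the heparan sulfate proteoglycan syndecan-4, WASL, which encodes the actin regulator N-WASP, and JDP2, which encodes an AP-1 family repressor. Pearson's r was 0.999 for each. The points form 1 cluster per condition, so r mainly reflects the difference between the conditions, and it describes these libraries alone. The log2(FC) was 0.58 for SDC4, 0.56 for WASL and 2.58 for JDP2.

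Another 46 genes of the Notch pathway, in 7 lists by role, were looked at in the same fit. Of these 38 were expressed highly enough to be tested, 5 were upregulated, 10 were downregulated and 23 were not called. The split depended on the scaling, with 3 upregulated and 13 downregulated under upper-quartile scaling and 2 and 13 when the library total alone was used. The median log2(FC) of the tested genes was -0.05, and the background of called genes is the 34.7% given above.

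The largest change in these lists was that of LFNG, which encodes lunatic fringe, a glycosyltransferase that modifies Notch receptors and alters their response to Jagged and Delta ligands. Its level was 2.29, 1.82, 2.31 and 1.45 FPKM in ethanol replicates 1 to 4 and 0.28, 0.48, 0.36 and 0.28 FPKM in O/A replicates 1 to 4. Every O/A library lay well below every ethanol library, on 105 to 145 counts per library in ethanol and 17 to 31 in O/A. LFNG fell 5.36-fold, with a log2(FC) of -2.42 (standard error 0.181, edgeR quasi-likelihood adjusted p = 8.98e-15), and 0.0537% of all genes tested fell by more. On log2(FPKM + 1) values the log2(FC) of LFNG was -1.13. LFNG was the 1 gene called among 5 genes of receptor glycosylation. POFUT1, which adds the fucose that fringe enzymes extend and had the highest FPKM of the list, had a log2(FC) of -0.24. This lies just within the fold threshold, although every O/A library lay below every ethanol library (edgeR quasi-likelihood adjusted p = 1.73e-09).

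Of 8 genes of receptor cleavage, 2 rose slightly, none fell and the median log2(FC) was 0.13. ADAM17, an ADAM protease, had a log2(FC) of 0.37, and PSENEN, a γ-secretase subunit, had one of 0.26. ADAM10, another ADAM protease of this list, was at 14.5 FPKM in ethanol and 13.7 in O/A. It was not called (log2(FC) -0.04). The value of PSENEN lies at the threshold, and it was lost without ethanol replicate 2 (0.25) or O/A replicate 4 (0.25). APH1A, the γ-secretase subunit with the highest FPKM of the list, was at 32.0 FPKM in ethanol and 31.0 in O/A and was not called.

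Of 8 tested genes of receptor trafficking and turnover, 4 fell and 1 rose. DTX4, a Deltex ubiquitin ligase, was at 6.88, 6.86, 7.23 and 6.91 FPKM in ethanol replicates 1 to 4 and at 2.61, 2.98, 2.80 and 2.26 FPKM in O/A replicates 1 to 4. It fell 2.53-fold with no overlap between the conditions (log2(FC) -1.34, standard error 0.059, edgeR quasi-likelihood adjusted p = 1.91e-25). NUMBL, a relative of the Notch antagonist NUMB, had a log2(FC) of -0.48, and the Deltex genes DTX2 and DTX3L had log2(FC) values of -0.30 and -0.27. The call of DTX3L was lost without O/A replicate 4 (log2(FC) -0.23). DTX3 had a log2(FC) of 0.36, a call that was lost in DESeq2 (adjusted p = 0.0625) and without ethanol replicate 3 (log2(FC) 0.25) or any 1 of O/A replicates 1, 2 and 3 (0.34, 0.31 and 0.35). NUMB itself was not called (log2(FC) -0.09).

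Of 9 genes of the nuclear complex and its corepressors, MAML3 and MAML2, coactivators of the Mastermind family, fell (log2(FC) -0.96 and -0.41). The call of MAML3 was lost on log2(FPKM + 1) values (-0.14). The other 7 were not called. RBPJ had a log2(FC) of -0.08, and SNW1, a coregulator with the highest FPKM of the list, had 0.06. Of 3 tested genes of ligand ubiquitination, which primes ligands for activity, NEURL1B fell (log2(FC) -0.64) and MIB1 rose (0.27). MIB1 was within the fold threshold without ethanol replicate 3 (0.23). MIB2 was not called (log2(FC) -0.12).

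HES2, another HES repressor gene, was the most abundant of the HES and HEY transcripts in ethanol. Its level was 34.8, 35.5, 38.2 and 35.7 FPKM in ethanol replicates 1 to 4 and 19.6, 19.6, 17.9 and 19.1 FPKM in O/A replicates 1 to 4. The libraries did not overlap, and HES2 fell 1.83-fold (log2(FC) -0.87, standard error 0.0324, edgeR quasi-likelihood adjusted p = 9.60e-29). HES6 rose from 1.11 ± 0.0359 to 1.68 ± 0.0978 FPKM (SD, n = 4, log2(FC) 0.64). HES7 had a similar log2(FC) of 0.63 on 6 to 23 counts per library and was not called (edgeR quasi-likelihood adjusted p = 0.103). Members of the HES and HEY families thus went in both directions, HES2 down and HES6 and HEY1 up. Whether these genes follow Notch in these cells was not tested.

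Of the other ligands, DLK2, a noncanonical ligand of the Delta family, fell (log2(FC) -0.60), and DLL3 was not called (log2(FC) 0.26, 16 to 27 counts). The 8 pathway genes too low to test were the receptor gene NOTCH4 (1 to 6 counts), the ligand genes DLL4 (2 to 12) and DLK1 (0 to 1), the ubiquitin ligase genes NEURL1 (1 to 11) and DTX1 (0 to 2), and the target genes HES5, HEY2 and HEYL (0 to 1 each).

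**Figure D2:**
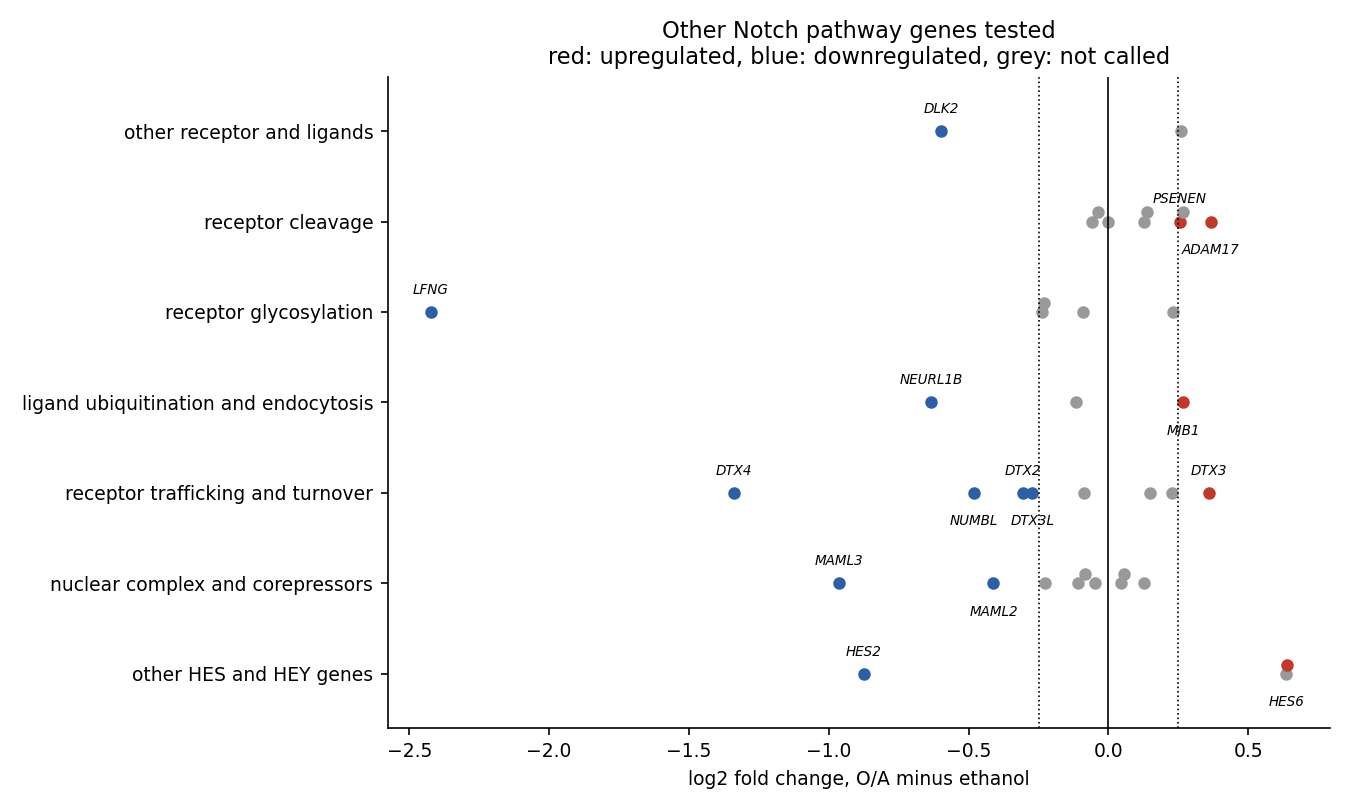
Log2 fold change (x axis, O/A minus ethanol) of the 38 other Notch pathway genes tested, in rows by role. Red points are upregulated, blue points downregulated and grey points not called, dotted lines mark the fold threshold of 0.25 in each direction, and close points are offset vertically. LFNG (-2.42), DTX4 (-1.34), MAML3 (-0.96) and HES2 (-0.87) lie furthest to the left, and no gene of receptor cleavage is downregulated.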

How the data were processed

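RNA of 8 libraries of N/TERT cells, 4 ethanol and 4 O/A, was analysed. Groups were taken from the sample labels. The authors aligned reads to GRCh38.p13 with HISAT2 2.0.1 and counted them on Ensembl genes with HTSeq 0.6.1, and the deposited counts are not normalized. The strand setting and Ensembl release are not given in the sources used here. The FPKM values deposited by the authors were used for levels. The authors' DESeq2 comparison table was not used: it holds fold changes, p-values and adjusted p-values.

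Counts were tested with edgeR 4.0.16 in R 4.3.3 (TMM scaling, robust quasi-likelihood test, no replicate block), after the filter of at least 10 counts in at least 4 libraries, with Benjamini-Hochberg adjustment over 14893 genes. The scripts were tested on simulated data. Shares and single genes were compared by exact permutation tests in SciPy 1.17.1. All replicates differed from each other beyond counting noise (chi-square per degree of freedom 1.76 to 5.74 within a condition), and none was merged. Same-numbered replicates did not deviate together. Few reads limit DLL1, HEY1, HES4, NRARP and NOTCH3.

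The Notch genes, the 7 pathway lists and the marker lists were chosen with earlier results of these data known. All 10 Notch genes, every pathway gene called, the most abundant gene not called of each list and the 3 genes most like JAG1 were named. RBPJ and ADAM10 were named as well. The alternatives were DESeq2 1.42.0, limma 3.58.1 on FPKM, other scalings, filters and fold thresholds, the replicate block and each library left out. One further gene of the pathway was left out of the lists and is not reported here.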

Additional observations from a re-analysis of the deposited data

Results flagged for a closer look

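In O/A replicate 1, NOTCH1 made up 52.5% of the summed receptor FPKM, while the other O/A replicates lay between 54.0% and 54.1%, so that this library stood apart from the rest of its condition by the test for a single distant value. The ethanol libraries ranged from 52.4% to 54.8%. Of 32 groups of 4 values that were examined in this way, 1 met the criterion, and about 1 in 20 (1.6 groups) would by chance.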

How the results depend on the processing

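The count of Notch genes called was 5, and between 5 and 6 when each library was left out in turn. It was 3 on log2(FPKM + 1) values, where NOTCH3 and HEY1 fell within the fold threshold, and 8 with no fold threshold, where NOTCH1, NOTCH2 and HES1 were added. Upregulated genes were 3, and 1 and 6 under those alternatives, and downregulated genes were 2 under every alternative. Whether the 3 genes added with no fold threshold passed depended on the processing. With the library total alone, the edgeR quasi-likelihood adjusted p was 0.0816 for NOTCH1, 0.115 for NOTCH2 and 0.0612 for HES1, so none passed. With upper-quartile scaling it was 0.0687 for NOTCH1 and 0.109 for NOTCH2, while HES1 passed (0.0354). Without 1 library, NOTCH1 and NOTCH2 failed in most fits and HES1 in none. All 3 passed in DESeq2. Of the other pathway genes 15 were called, 14 to 17 without 1 library, 23 with no fold threshold and 2 at a log2(FC) beyond 1 in either direction. No log2(FC) of a Notch gene changed sign under any alternative run. That of JAG1 stayed between 1.13 and 1.22, that of JAG2 between -1.16 and -0.78, and that of DLL1 between -1.27 and -0.50. HEY1 was not tested with a minimum of 50 counts. With upper-quartile scaling the calls of PSENEN and MIB1 were lost (log2(FC) 0.22 and 0.23). A fit that blocked on replicate number called 5 Notch genes and 15 other pathway genes, and the correlations of same-numbered replicates were between -0.03 and 0.07, with 3 of 8 libraries closest to their own number. Depth limits DLL1, HEY1, HES4, NRARP and NOTCH3, which had the fewest reads.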

Other observations

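NEURL1, which encodes an E3 ubiquitin ligase of the Neuralized family, was too low to test, but its counts were 2, 1, 1 and 6 in ethanol replicates 1 to 4 and 10, 11, 8 and 7 in O/A replicates 1 to 4, so that every O/A library was above every ethanol library. DLL4, an endothelial Delta ligand in many tissues, had 3, 3, 4 and 3 counts in ethanol replicates 1 to 4 and 7, 2, 12 and 11 in O/A replicates 1 to 4, with O/A replicate 2 below the ethanol range. Both genes were singled out after their values were seen.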
